A study of Homo sapiens with 6 samples.

Results

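Replication fork polymerases and accessory proteins were examined in EJ, a human bladder cancer cell line kept in culture, after stable knockdown of STIL, a protein needed to build centrioles. The group was a list of 41 gene symbols, set by the role of each protein with no measured value in the rule. Earlier results of these data were known when the list was chosen. All 41 symbols were found among the 15953 genes measured. They fell into polymerase alpha-primase (4 genes), polymerase delta (4), polymerase epsilon (4), the PCNA clamp with its loaders (9), CDC45 and GINS (5), fork protection factors and mediators (5), RPA (3), Okazaki fragment maturation (4), and chromatin assembly with topoisomerase (3). RNA-seq covered 6 libraries, 3 from cells carrying the control lentivirus shNC and 3 from cells carrying the STIL knockdown lentivirus shSTIL. Both groups were stably transduced EJ cells, and no age, time point or further agent was named for either. The labels named the hairpin groups shNC and shSTIL, whereas the headings of the expression tables carried siNC and siSTIL. How many hairpins or clones stood behind each group was not given, nor whether the 3 libraries of a group came from separate cultures, so p-values measure only the spread between these libraries.

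A replication fork is driven by the CMG helicase, in which CDC45 and GINS bind the MCM ring. Polymerase alpha-primase lays short primers, polymerase epsilon extends the leading strand and polymerase delta the lagging strand, both held to DNA by the sliding clamp PCNA, which the RFC complex loads. RPA coats the exposed single strand, FEN1, DNA2, RNASEH2A and LIG1 turn Okazaki fragments into a continuous strand, and CAF-1 places histones behind the fork. Transcription of many of these genes is known to depend on E2F factors and to peak around the start of S phase in cycling cells.

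Values are log2 CPM as deposited, the base 2 logarithm of the read count of a gene scaled to the depth of its library. A gene was called lower or higher where limma, a linear model with variances moderated across all 15953 genes, gave a Benjamini-Hochberg adjusted p under 0.01. Each library held 16214772 to 16901634 reads, and each of the 41 genes had between 113 and 11879 reads in every library. STIL itself stood at 5.98, 6.10 and 6.01 in shNC and at 4.05, 4.06 and 4.01 in shSTIL, with 25.2% of the control level left (log2 fold change -1.99 ± 0.05 SE, limma adjusted p = 6.1e-12). The epithelial markers summed to 1072 to 1130 CPM in shNC and 967 to 999 CPM in shSTIL, nearly all from the keratins KRT18, KRT8 and KRT7. EPCAM stood at 0.994 CPM in shNC and 1.01 CPM in shSTIL. CDH1, the epithelial cadherin, was near 0 at 0.124 and 0.117 CPM, and KRT19 was not among the genes measured. The urothelial markers summed to 31.9 to 34.1 CPM in shNC and 31.6 to 32.4 CPM in shSTIL. Most of this came from PPARG (19.31 and 23.05 CPM) and FOXA1 (9.94 and 6.84 CPM). UPK1A was at 1.91 and 1.23 CPM and UPK1B at 1.10 and 0.449 CPM. UPK2 and GATA3 were under 1 CPM, and UPK3A was not among the genes measured. Mesenchymal markers, mainly VIM, summed to 1473 to 1515 CPM in shNC and to 929 to 950 CPM in shSTIL. Of the 6 markers of leukocytes, endothelium and red cells, only CD14, PECAM1 and VWF were among the genes measured, and these 3 summed to less than 1 CPM in every library.

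Of the 41 replication fork genes, 38 fell in shSTIL, none rose and 3 (POLD4, POLE3 and GINS3) passed the test in neither direction. Among all genes tested, 23.6% were lower and 23.5% higher by the same rule, and 32.8% were lower among the 9943 genes whose mean log2 CPM reached 3, as it did for every replication fork gene. The count of 0 higher genes came from limma. At an unadjusted p under 0.05, 1 of the 41 was higher (POLE3), and neither edgeR nor DESeq2 on the recovered reads called any of them higher. In 40 of the 41 genes every shSTIL library lay below every shNC library, a separation seen in 30.5% of all genes, and POLE3 was the exception. In bulk RNA, fewer cells in S phase and less RNA of these genes per cell cannot be told apart.

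The median log2 fold change of the 41 genes was -0.96 against 0.01 for all genes, and 3.70% of all genes had a fold change at or below that median. A fall of more than 1 on the log2 scale, which leaves less than 50% of the control level, was called in 18 of the 41, compared with 3.1% of all genes. Summed over the 41 genes, the level dropped from 3819 ± 19.6 CPM (SD, n = 3) in shNC to 2120 ± 18.9 CPM in shSTIL, so that 55.5% remained. Within a group the libraries lay close together, with a median SD across the 41 genes of 0.05 log2 units in shNC and 0.06 in shSTIL. With 3 libraries against 3, the exact two-sided permutation test could not go below p = 0.1, and each of the 41 genes reached that value.

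**Figure D1:**
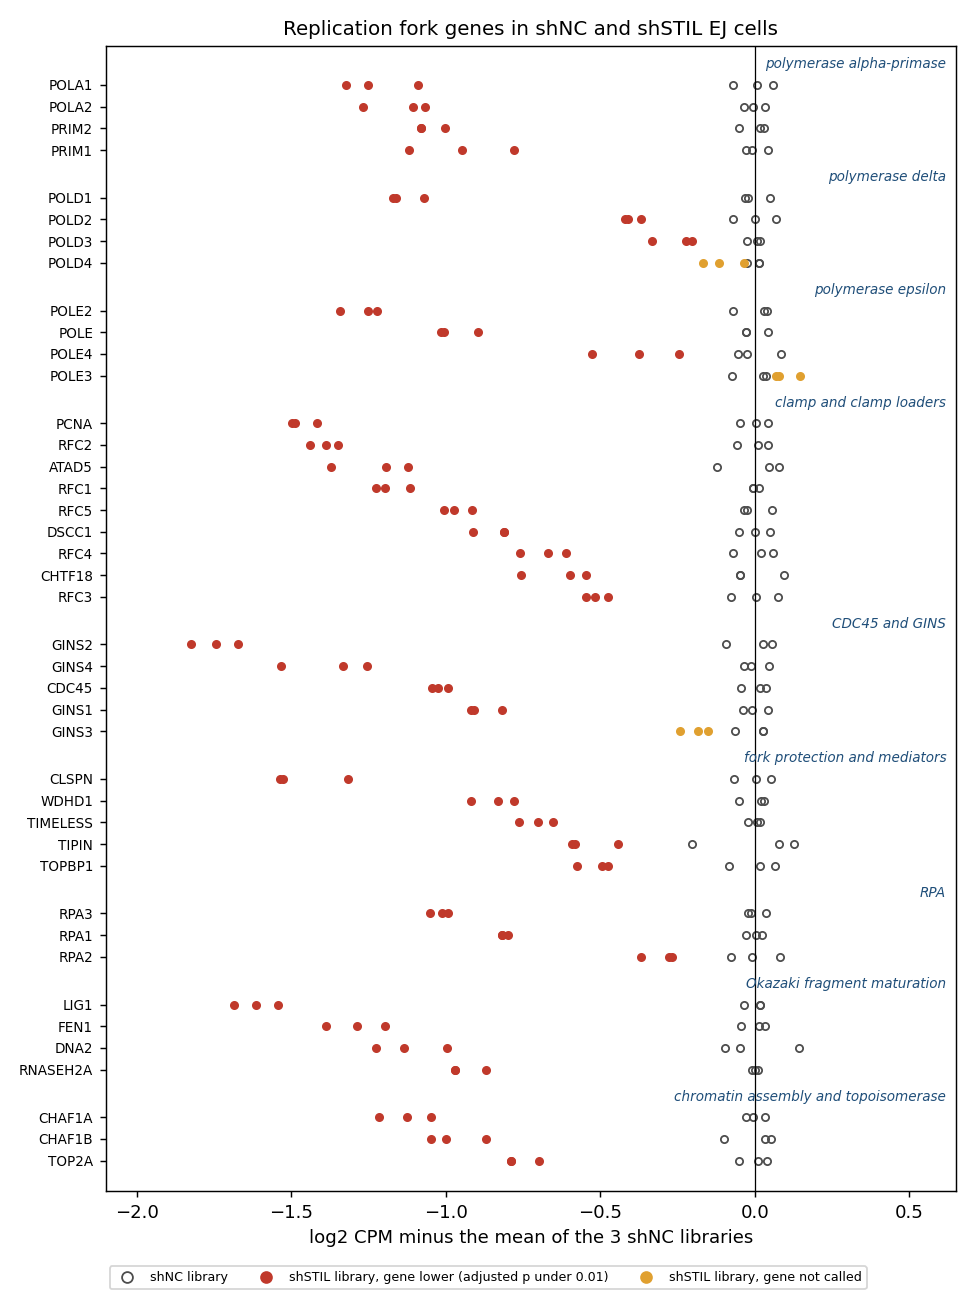
Each row is 1 replication fork gene, grouped by role, and the horizontal axis gives the log2 CPM of each library minus the mean of the 3 shNC libraries. Open points are shNC libraries, red points shSTIL libraries of the 38 genes called lower and orange points those of the 3 genes not called. GINS2, LIG1 and PCNA lie farthest to the left, and POLE3 is the only gene with its shSTIL points to the right of its shNC points.

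The promoters of 5 of these genes are shown first, because they take in the 3 deepest falls (GINS2, LIG1 and PCNA), a core subunit of the leading strand polymerase (POLE2) and a helicase subunit that was not called (GINS3), and because each holds an E2F word. Each sequence runs 5′ to 3′ on the strand of the gene, from 250 bases before to 50 bases after a RefSeq transcription start on GRCh38.p14, and capitals mark an E2F word (TTTCCCGC or TTTGGCGC, or the reverse complement). PCNA has several windows in the table, and the one with the word is given. The windows are PCNA at chr20:5126573-5126872 on the minus strand, LIG1 at chr19:48170295-48170594 on the minus strand, GINS2 at chr16:85688905-85689204 on the minus strand, GINS3 at chr16:58392221-58392520 on the plus strand, and POLE2 at chr14:49688165-49688464 on the minus strand.
PCNA: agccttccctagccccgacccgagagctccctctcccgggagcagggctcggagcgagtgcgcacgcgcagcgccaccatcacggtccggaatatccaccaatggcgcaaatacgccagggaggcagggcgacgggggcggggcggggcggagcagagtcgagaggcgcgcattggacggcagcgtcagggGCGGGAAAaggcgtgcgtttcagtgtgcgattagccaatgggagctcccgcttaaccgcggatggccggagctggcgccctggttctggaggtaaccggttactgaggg
LIG1: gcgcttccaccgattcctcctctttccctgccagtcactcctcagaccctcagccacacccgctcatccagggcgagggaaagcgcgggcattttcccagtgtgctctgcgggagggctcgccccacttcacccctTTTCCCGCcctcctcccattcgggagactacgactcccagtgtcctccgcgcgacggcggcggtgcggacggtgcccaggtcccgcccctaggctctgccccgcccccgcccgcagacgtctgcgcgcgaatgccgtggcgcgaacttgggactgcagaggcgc
GINS2: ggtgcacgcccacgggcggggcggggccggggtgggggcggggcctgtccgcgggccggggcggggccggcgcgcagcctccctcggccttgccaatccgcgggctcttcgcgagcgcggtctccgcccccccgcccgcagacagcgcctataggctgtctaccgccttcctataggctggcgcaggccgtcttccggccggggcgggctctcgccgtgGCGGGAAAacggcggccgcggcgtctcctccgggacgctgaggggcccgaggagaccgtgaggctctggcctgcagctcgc
GINS3: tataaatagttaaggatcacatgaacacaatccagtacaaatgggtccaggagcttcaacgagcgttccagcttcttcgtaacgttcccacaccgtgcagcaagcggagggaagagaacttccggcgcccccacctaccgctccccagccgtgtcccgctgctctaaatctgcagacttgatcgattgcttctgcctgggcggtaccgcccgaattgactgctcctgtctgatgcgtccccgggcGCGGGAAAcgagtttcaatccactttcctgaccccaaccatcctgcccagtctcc
POLE2: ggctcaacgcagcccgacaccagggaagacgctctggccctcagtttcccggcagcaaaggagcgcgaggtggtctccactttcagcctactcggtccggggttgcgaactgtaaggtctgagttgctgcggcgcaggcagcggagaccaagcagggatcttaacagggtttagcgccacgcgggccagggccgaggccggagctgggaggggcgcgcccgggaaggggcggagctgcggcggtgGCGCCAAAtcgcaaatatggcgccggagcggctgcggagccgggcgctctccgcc

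Of the 41 genes, 34 had at least 1 window in the RefSeq table, and RPA2, RPA3, DNA2, GINS4, POLD3, ATAD5 and DSCC1 were without one. The words searched, on both strands, were TTTCCCGC, TTTGGCGC, TTTCGCGC and TTTGCCGC for E2F, CCAAT for the CCAAT box, GGGCGG for the GC box, and TTTGAA and TTCGAA for the cell cycle homology region (CHR) of late cell cycle genes. An E2F word stood in 14 of the 34 genes (41.2%), compared with 6.07% of the 12621 tested genes that had a window and 3.99% of all 27305 genes of the table. CCAAT was present in 20 of the 34 (58.8%, against 42.7% of tested genes), the GC box in 28 (82.4%, against 72.2%) and a CHR word in 2 (5.88%, against 16.1%). In the shorter window from 100 bases before the start, 12 genes kept an E2F word (35.3%, against 3.16% of tested genes) and none a CHR word.

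Genes with and without the word covered overlapping ranges of fold change. Among the 14 genes with an E2F word, 13 were lower, with a median log2 fold change of -1.06 and a span from -1.74 to -0.19. The 20 genes whose windows held none had a median of -0.94 and spanned from -1.39 to 0.10, with 18 of them lower. GINS2 and GINS3 carried the same word, TTTCCCGC on the minus strand, at 31 and 5 bases before the start, and were the 2 ends of the fold changes within GINS. In TIPIN, 2 overlapping copies of TTTGGCGC on opposite strands began 66 and 62 bases before the start. These matches describe letters in a window and are not evidence of binding.

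**Figure D2:**
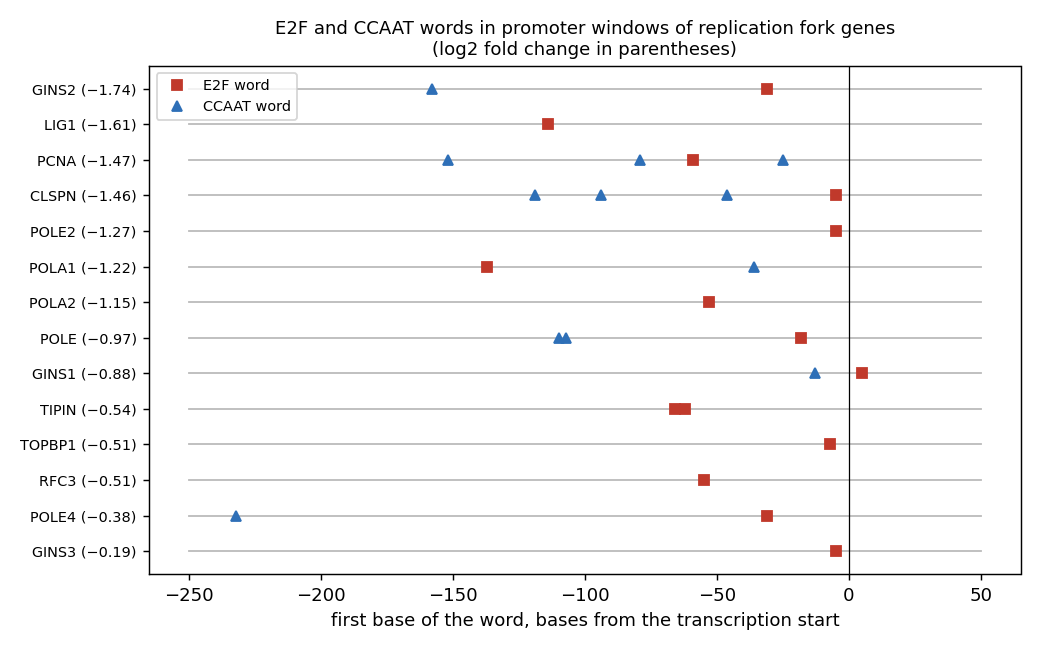
Rows are the 14 replication fork genes with an E2F word in a promoter window, ordered by log2 fold change (in parentheses), and the horizontal axis is the distance in bases from the transcription start. Red squares mark the first base of an E2F word and blue triangles that of a CCAAT word. Outside LIG1 and POLA1 the E2F words lie from 100 bases before to 50 bases after the start, in GINS2 at the top as in GINS3 at the bottom.

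All 4 subunits of polymerase alpha-primase, which starts every new strand with an RNA-DNA primer, fell to a similar degree, and 45.6% of their summed CPM remained. POLA1, the catalytic subunit (chromosome X, 24693919 to 24996986, GRCh38), had a log2 CPM of 6.34, 6.47 and 6.42 in shNC and of 5.32, 5.09 and 5.16 in shSTIL. Its log2 fold change was -1.22 ± 0.06 SE (limma adjusted p = 1.0e-09), the deepest of the 4. PRIM1, the catalytic primase, fell least, from 4.91, 4.96 and 4.89 to 3.80, 3.97 and 4.14, a log2 fold change of -0.95 ± 0.08 SE. Its shSTIL libraries were spread most widely of the 4 subunits, yet all lay below the lowest shNC library. POLA2, the accessory subunit, and PRIM2, the large primase subunit, changed by -1.15 and -1.05. POLA2 reads were not whole numbers in every library, meaning that RSEM divided some of them between similar transcripts.

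Polymerase delta, the lagging strand enzyme, did not fall as a unit. POLD1, which holds the polymerase and proofreading sites (chromosome 19, 50384204 to 50418016), went from 6.71, 6.63 and 6.64 in shNC to 5.49, 5.59 and 5.50 in shSTIL, with 45.6% left (log2 fold change -1.13 ± 0.04 SE, limma adjusted p = 1.2e-10). POLD2, the scaffold between the catalytic subunit and the rest, fell from 7.95, 7.81 and 7.88 to 7.46, 7.47 and 7.51, so that 75.8% remained. Both subunits were separated between groups without overlap, with POLD1 the more deeply reduced. POLD3, which carries a PCNA-binding motif, moved from 5.92, 5.93 and 5.89 to 5.69, 5.58 and 5.71 (log2 fold change -0.25 ± 0.04 SE, limma adjusted p = 2.9e-04), a call lost when shNC replicate 1 (adjusted p = 0.0113) or shNC replicate 2 (adjusted p = 0.011) was left out. POLD4, the small subunit, was at 5.66, 5.62 and 5.66 in shNC and at 5.48, 5.53 and 5.61 in shSTIL. The POLD4 groups did not overlap but lay next to each other, and the log2 fold change of -0.10 (95% confidence interval -0.20 to -0.0035) was not called at a limma adjusted p of 0.074.

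The same unevenness appeared in polymerase epsilon, the leading strand enzyme. POLE, the catalytic subunit (chromosome 12, 132623753 to 132687365), stood at 7.31, 7.24 and 7.24 in shNC and at 6.37, 6.25 and 6.26 in shSTIL, with 50.9% left (log2 fold change -0.97 ± 0.04 SE, limma adjusted p = 3.5e-10). POLE2, the second subunit, which ties the polymerase to the helicase, fell from 4.53, 4.63 and 4.64 to 3.26, 3.38 and 3.35, with 41.5% left. These 2 core subunits each fell by at least the median change of the 41 genes (-0.96). POLE3 and POLE4 are small histone-fold proteins that pair with each other and bind histones. POLE3 was at 6.79, 6.69 and 6.80 in shNC and at 6.83, 6.91 and 6.84 in shSTIL. It was the only one of the 41 genes whose shSTIL libraries all lay above its shNC libraries, although the log2 fold change of 0.10 (95% confidence interval 0.01 to 0.19) was not called at a limma adjusted p of 0.046. POLE4 was the least abundant of the 4 subunits, at 3.22, 3.36 and 3.25 in shNC and 2.75, 3.03 and 2.90 in shSTIL. Its log2 fold change of -0.38 ± 0.11 SE passed narrowly (limma adjusted p = 0.0083), and the call was lost in 14 of 18 alternatives, among them the omission of any 1 library, where adjusted p ran from 0.0135 to 0.0468.

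**Figure D3:**
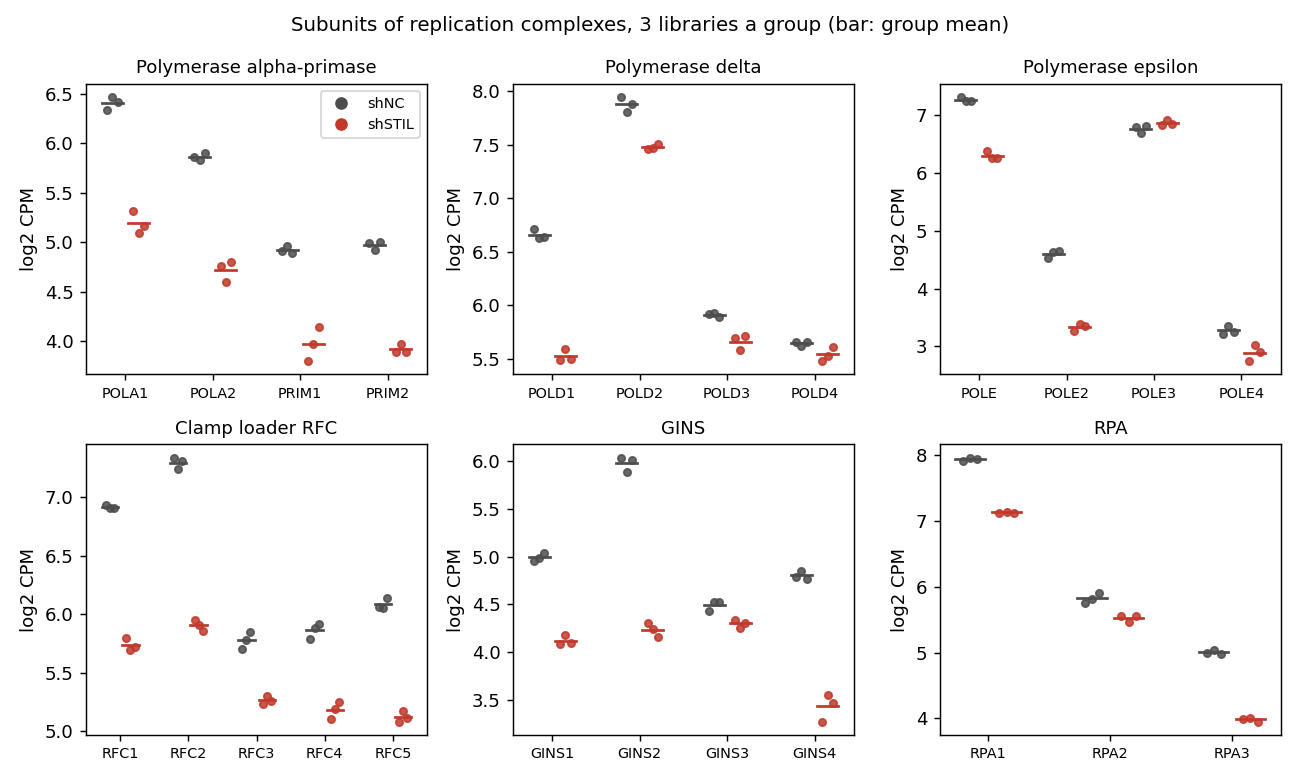
Panels give the log2 CPM (vertical axis) of the subunits of 6 replication complexes, with 3 shNC libraries in grey and 3 shSTIL libraries in red and a bar at each group mean. In polymerase alpha-primase all 4 subunits drop, whereas the groups of POLD4, POLE3 and GINS3, which were not called, lie close together beside partners that fall.

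To compare subunits directly, the log2 ratio of each partner to 1 reference subunit of its complex was taken within each library, which cancels any shift shared by the complex. In polymerase delta, the ratio of POLD4 to POLD1 rose from -1.06, -1.0 and -0.99 in shNC to -0.01, -0.06 and 0.11 in shSTIL, a difference of 1.03. In polymerase epsilon, the ratio of POLE3 to POLE rose from -0.52, -0.55 and -0.44 to 0.46, 0.66 and 0.58, a difference of 1.07. Of 18 such ratios, 15 did not overlap between groups, 10 with the partner raised relative to its reference and 5 with the partner lowered. Because the references fell, most genes separated in the same way. Taken to the same 6 references, the ratio of the other genes tested did not overlap in 86.9% to 93.4% of genes. Of these genes, 84.1% to 92.6% were raised and 0.658% to 2.82% lowered. The total of 15 separated ratios is therefore no result about the subunits. Lowered ratios, 5 of 18, were more frequent here than among the other genes, a difference that was not tested. The 3 ratios that overlapped were those of POLA2, PRIM1 and PRIM2 to POLA1, with differences of 0.07, 0.27 and 0.17. Each of the 15 had an exact two-sided permutation p of 0.1, the smallest that 3 against 3 allows (0.12 after Benjamini-Hochberg adjustment over the 18). The remaining partners raised relative to their reference were POLD2 (difference 0.73), POLD3 (0.88), POLE4 (0.59), RFC3 (0.67), RFC4 (0.50), RFC5 (0.22), GINS3 (0.69) and RPA2 (0.51). Those lowered were POLE2 (-0.30), RFC2 (-0.21), GINS2 (-0.86), GINS4 (-0.49) and RPA3 (-0.20).

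All 9 genes of the clamp and its loaders fell, and 45.8% of their summed CPM remained. PCNA, the ring that tethers both polymerases (chromosome 20, 5114953 to 5126626), stood at 8.10, 8.06 and 8.01 in shNC and at 6.56, 6.64 and 6.57 in shSTIL. With 36.2% left (log2 fold change -1.47 ± 0.04 SE, limma adjusted p = 3.2e-12), it had the lowest adjusted p of the 41 genes. RFC3, a small subunit of the loader, fell least of the 9, from 5.70, 5.78 and 5.85 to 5.23, 5.30 and 5.26, with 70.0% left. Both genes were separated between groups. Among the other loader subunits, RFC1, the large subunit, changed by -1.18, RFC2 by -1.39, RFC4 by -0.68 and RFC5 by -0.96. The alternative loaders moved with them, with -1.23 for ATAD5, which unloads PCNA, and -0.84 and -0.63 for DSCC1 and CHTF18, parts of the loader that acts in sister chromatid cohesion. RSEM reads of RFC2 were not whole in every library.

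CDC45 and the 4 GINS subunits join the MCM ring to form the active helicase, and they covered nearly the whole range of responses. GINS2 (chromosome 16, 85676198 to 85690073) went from 6.04, 5.89 and 6.01 in shNC to 4.31, 4.24 and 4.16 in shSTIL. This was the deepest fall of all 41 genes, with 29.8% left (log2 fold change -1.74 ± 0.06 SE, limma adjusted p = 5.1e-11). GINS4 fell from 4.79, 4.85 and 4.77 to 3.27, 3.55 and 3.47, with 38.6% left, and GINS1 from 4.96, 4.99 and 5.04 to 4.08, 4.18 and 4.09, with 54.2% left. GINS3 (chromosome 16, 58295080 to 58406144) was at 4.43, 4.52 and 4.52 in shNC and at 4.34, 4.25 and 4.31 in shSTIL. All of its shSTIL libraries were below its shNC libraries, but the log2 fold change of -0.19 (95% confidence interval -0.33 to -0.06) was not called at a limma adjusted p of 0.018. CDC45, which binds across the gate of the MCM ring, fell from 6.02, 5.96 and 6.04 to 5.01, 4.98 and 4.96, with 49.3% left. Relative to GINS1 within each library, GINS2 dropped from 1.09, 0.90 and 0.97 to 0.23, 0.06 and 0.07, while GINS3 rose from -0.52, -0.47 and -0.52 to 0.26, 0.07 and 0.22.

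The 5 fork protection factors and mediators were all lower, by unequal amounts. CLSPN (claspin), the adaptor through which ATR activates CHK1, stood at 5.36, 5.43 and 5.48 in shNC and at 4.11, 3.90 and 3.89 in shSTIL, with 36.3% left (log2 fold change -1.46 ± 0.07 SE, limma adjusted p = 1.2e-09). TOPBP1, the activator of ATR, had the smallest change of the group, from 6.52, 6.67 and 6.62 to 6.13, 6.03 and 6.11 (log2 fold change -0.51 ± 0.05 SE), with no overlap between the groups. TIMELESS and its partner TIPIN, which hold helicase and polymerase together, changed by -0.70 and -0.54, and WDHD1, the human counterpart of Ctf4, by -0.84. TIPIN had few reads, 152 to 239 a library, and the widest shNC spread of the 41 genes, with log2 CPM of 3.56, 3.89 and 3.84 against 3.32, 3.17 and 3.18. Its call (limma adjusted p = 5.9e-04) was lost in 5 of the 6 fits that left out 1 library, where adjusted p reached 0.03, and was kept without shNC replicate 1.

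In RPA, the single-strand binding complex, 60.3% of the summed CPM remained, and the 3 subunits again differed. RPA3, the smallest subunit, fell from 4.99, 5.04 and 4.98 in shNC to 3.99, 4.01 and 3.95 in shSTIL, with 49.4% left. RPA1, the main DNA-binding subunit, fell from 7.91, 7.96 and 7.94 to 7.12, 7.14 and 7.12, with 56.9% left. RPA2, the subunit phosphorylated under replication stress, fell from 5.75, 5.82 and 5.91 to 5.55, 5.46 and 5.56, with 81.1% left (log2 fold change -0.30 ± 0.05 SE, limma adjusted p = 1.6e-04). None of the 3 overlapped between groups, and the RPA2 groups were nearest to each other. The RPA2 call was lost in 4 of the 6 fits without 1 library (shNC replicate 2 or any shSTIL replicate), where adjusted p reached 0.0138.

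Okazaki fragment maturation lost the largest share of its summed CPM, of which 41.6% remained. LIG1, the ligase that seals the fragments (chromosome 19, 48115445 to 48170603), went from 6.72, 6.72 and 6.67 to 5.09, 5.16 and 5.02, with 32.7% left (log2 fold change -1.61 ± 0.04 SE, limma adjusted p = 9.6e-12). RNASEH2A, the catalytic subunit of the enzyme that removes RNA from RNA-DNA hybrids, fell least of the 4, from 6.28, 6.30 and 6.29 to 5.32, 5.32 and 5.42, with 52.3% left. Its shSTIL libraries, like those of LIG1, all lay below the lowest shNC library. FEN1, the flap endonuclease, and DNA2, the nuclease for long flaps, changed by -1.29 and -1.12.

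Behind the fork, the CAF-1 subunits CHAF1A and CHAF1B, which load newly made histones H3 and H4, changed by -1.13 and -0.97. CHAF1A stood at 6.27, 6.25 and 6.31 in shNC and at 5.15, 5.06 and 5.23 in shSTIL, with 45.7% left. TOP2A, the topoisomerase that untangles sister chromatids and is most abundant later in the cell cycle, went from 9.42, 9.51 and 9.48 to 8.77, 8.68 and 8.68, with 59.1% left (log2 fold change -0.76 ± 0.04 SE). It had the highest log2 CPM of the 41 genes in both groups. RSEM reads of CHAF1B, CLSPN and TOPBP1 were not whole in every library, which left 36 of the 41 genes with whole read totals throughout. A whole total does not show whether reads were divided between transcripts of the same gene.

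Levels were compared between genes per length, as CPM per kilobase of the longest coding transcript of GENCODE 29. In shNC, PCNA was highest at 196 ± 5.98 (SD, n = 3), followed by TOP2A at 123 ± 4.02, POLD2 at 109 ± 5.26 and RFC2 at 92.8 ± 3.31. The lowest were GINS4 at 7.18 ± 0.20, POLE4 at 7.67 ± 0.39 and TIPIN at 7.74 ± 0.93, which lay within their spread of each other. In shSTIL, POLD2 at 82.7 ± 1.63 stood above TOP2A at 72.7 ± 2.80 and PCNA at 70.8 ± 2.08, the last 2 within their spread of each other, and POLE3 at 53.1 ± 1.69 was above RFC2 at 35.4 ± 1.16. The choice of transcript length set these values: with the mean coding length in place of the longest, TOP2A in shNC came to 315, POLD2 to 209 and PCNA to 197 CPM per kilobase, so that PCNA was no longer first. At the lower end POLE4 (7.67) and ATAD5 (8.35) then stood below GINS4 (10.2) and TIPIN (13.7). The place of POLD2 above TOP2A in shSTIL likewise rests on the longest transcript. Across the 41 genes, the log2 fold change had a Pearson correlation of 0.07 with the mean log2 CPM and of -0.22 with the logarithm of the length. These correlations are across genes of the same 6 libraries.

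Genes that act beside the fork machinery were read from lists of their own. In the list of MCM helicase and origin firing genes, 11 of 13 were lower and the other 2 not called, with a median log2 fold change of -1.13, and the deepest fall was in MCM4, a subunit of the helicase ring (7.72, 7.69 and 7.71 in shNC, 5.89, 5.91 and 5.77 in shSTIL). The list of histone supply and chaperones had 7 of 8 genes lower and 1 not called (median -0.55), led by the histone chaperone ASF1B (-1.40). Most genes of both lists fell, as most fork genes did, whereas 23.6% of all genes were lower. Among genes averaging 3 log2 CPM or higher, that share was 32.8%. An E2F word stood in 5 of the 8 MCM list genes with a promoter window (62.5%), beside 41.2% of the fork genes. The histone supply list had the word in 0 of 8.

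Lists tied to repair and checkpoint functions held calls in both directions, in shares to be read against the 23.6% of all genes lower and 23.5% higher. Among 13 other DNA polymerases, 4 were lower and 4 higher, with a median of 0.10. POLH, the translesion polymerase that copies ultraviolet damage, fell from 5.10, 5.08 and 5.13 to 4.21, 4.23 and 4.35, while REV3L, the catalytic subunit of translesion polymerase zeta, rose from 5.28, 5.28 and 5.32 to 6.01, 5.92 and 5.86. Neither of these 2 calls changed in any of 15 other fits, those that kept the threshold and added no fold minimum. Of 8 genes of the ATR checkpoint and the 9-1-1 clamp, a PCNA-like ring that signals damage, 2 were lower and 2 higher (median 0.02), near the shares of all genes. The lowest there was RAD9A (-0.37) and the highest HUS1 (0.31), both clamp subunits, and each of these calls was lost in 7 of 15 fits. Of 10 other nucleases, ligases and topoisomerases, 5 were lower and 2 higher (median -0.14). In that list EXO1, a nuclease of mismatch repair, fell by 0.71 on the log2 scale, and LIG3, the ligase of mitochondria and single-strand break repair, rose by 0.44, a call lost in 2 of 15 fits. Together these 5 lists, which mix replication, checkpoint and repair genes, held 29 lower, 8 higher and 15 uncalled genes of 52, with a median of -0.22. The fork genes had 38, 0 and 3 of 41 at -0.96. The pool was uneven, with list medians from -1.13 for the MCM list, below that of the fork genes, to 0.10 for the other polymerases. No test was made of the difference between lists.

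Genes used in mitosis and in general transcription give a further scale. Of 15 G2 and mitosis genes, 14 were lower and 1 was not called, with a median of -0.57 and the deepest fall in NUSAP1, a spindle protein (-1.28). Their summed CPM went from 2774 to 2844 in shNC to 1833 to 1863 in shSTIL, so 65.5% remained beside 55.5% for the fork genes. Of 12 RNA polymerase II subunits, 6 were lower and 6 not called (median -0.16), with POLR2L at -1.24. By the same rule 23.6% of all genes were lower, and 32.8% of those averaging 3 log2 CPM or higher. Whether a shift in the share of cycling cells contributed to the fork gene values was not tested.

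**Figure D4:**
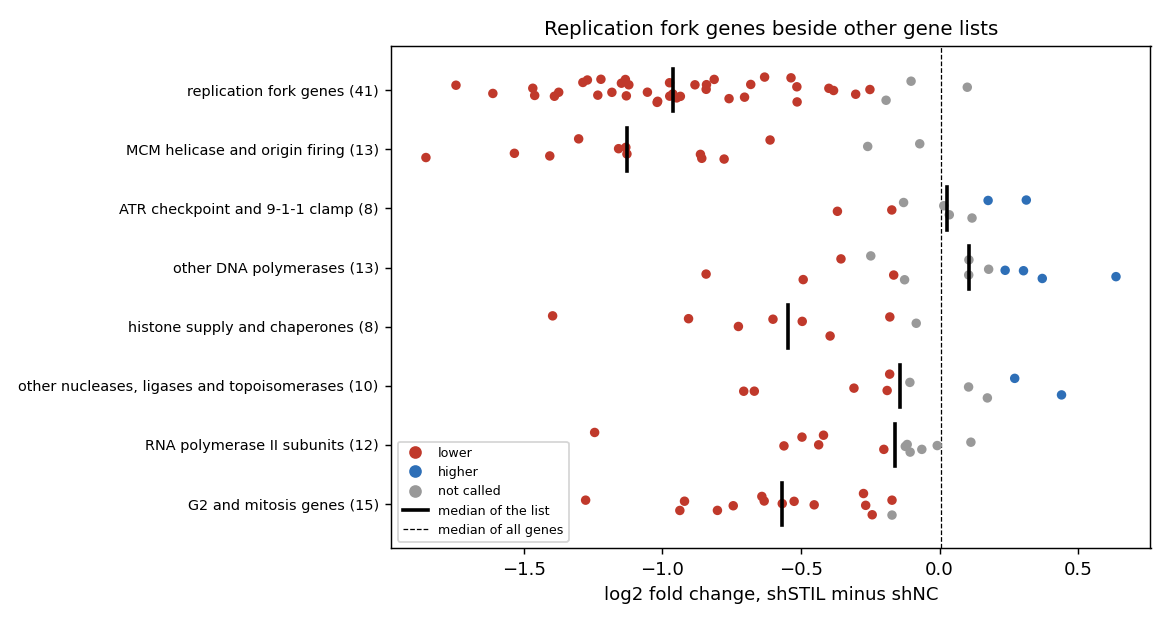
The horizontal axis gives the log2 fold change (shSTIL minus shNC) of each gene, with 1 row per list and the number of genes in parentheses. Red points are genes called lower, blue points higher and grey points not called, the black bar is the median of the list and the dashed line the median of all genes. The replication fork genes have their median at -0.96 and the MCM list at -1.13, while the medians of the ATR and other polymerase lists lie close to 0.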

How the data were processed

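Total RNA of 3 shNC and 3 shSTIL libraries of EJ cells was sequenced on a BGISEQ-500. The authors cleaned the reads (SOAPnuke), aligned these to transcripts (Bowtie2), estimated reads per gene with RSEM and computed CPM with edgeR; per the labels the build was hg38, and tool versions were not given in the sources used here. The deposited values used as the main measure were log2 CPM of 15953 genes in all 6 libraries, with library scaling and a prior count of 2. The deposited RSEM estimated counts, without normalization, covered 4 of the libraries (shNC 1 and all shSTIL) and served to check the reads recovered from the steps of the log2 CPM, which differed from them by less than 0.0003 reads. Between 87.4% and 87.8% of recovered values were whole within 0.01 reads, the rest having been divided by RSEM.

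Groups were taken from the sample labels. limma 3.58.1 (lmFit, eBayes with a mean-variance trend, R 4.3.3) was fitted to all genes and called at a Benjamini-Hochberg adjusted p under 0.01, with 95% confidence intervals. edgeR 4.0.16 (quasi-likelihood, TMM) and DESeq2 1.42.0 were run on the recovered reads rounded to whole numbers. The fit was tested on simulated data. Levels per length used the longest coding transcript in GENCODE 29, and gene positions came from the same annotation on GRCh38; promoter windows were RefSeq, GRCh38.p14. Libraries of 1 group differed by more than sampling noise in every pair (chi-square over its degrees of freedom 1.69 to 3.49). Same-numbered libraries did not deviate together (correlations of -0.12, -0.06 and -0.11), so numbers were not treated as pairs.

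The 41 genes and the comparison lists were chosen with earlier results of these data known. All 41 were named. Values were given in every library for the members with the lowest and highest fold change of each role group and for members whose call differed within a complex, and each other list was represented by its deepest called fall and, where present, its largest called rise. Further members shown by library, such as TIPIN, were chosen after their values were seen. The alternatives tried were the variance model, scaling, a filter at a mean log2 CPM of 1, log2(CPM + 1), the tools above, other thresholds, a replicate block and the omission of each library.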

Additional observations from a re-analysis of the deposited data

How the results depend on the processing

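The number of replication fork genes lower in shSTIL, 38 by limma, ranged from 34 to 36 when 1 library was left out, which leaves the affected group with 2 libraries. It was 38 with edgeR, 37 with DESeq2, 34 with limma's treat against 1.2-fold and 39 at an adjusted p under 0.05, where 1 gene, POLE3, was called higher. With an absolute log2 fold change above 1 added, 18 genes were lower, compared with 3.1% of all genes. For the other settings the share of all genes is not given here, so those counts show only how far the calls held. The replicate block gave 37, losing POLE4, and changed no other call among the 41 genes. The median log2 fold change of the 41 genes stayed between -0.97 and -0.94, and no gene changed direction in any alternative. With all 6 libraries kept and no minimum log2 fold change of 1, the calls lost were POLE4 under several settings, and POLD3, TIPIN and RPA2 with each gene's own variance or treat. None of the 18 subunit ratios turned, either without 1 library or on the log2(CPM + 1) scale. Calls in the ATR list were the least firm, with 0 to 2 genes lower and 0 to 2 higher. Levels per length moved beyond the replicate SD in 33 of the 41 genes with the mean coding length. With 3 libraries a group, small changes such as those of POLD4, POLE3 and GINS3 are known only within their intervals. POLE4, with 113 to 165 reads a library, and TIPIN, with 152 to 239, had the lowest depth of the 41 genes.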
